A study of Mus musculus with 15 samples.

Results

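The genes described here are 6 tight junction genes measured in mouse hematopoietic stem cells (HSCs): the claudins Cldn5 and Cldn12, the junctional adhesion molecules (JAMs) Jam2, Jam3 and F11r, and the scaffold gene Tjp1. They were chosen by symbol, as 6 of the 20696 genes of the expression table. RNA was sequenced in bulk from HSCs sorted from bone marrow. The 3 groups of 5 libraries came from young control mice aged 3 months, from aged control mice aged 18 months, and from mice aged 18 months labelled aged Thbs1 knockout (called the labelled knockout libraries here). Thbs1 encodes thrombospondin-1, a secreted glycoprotein. The labels give no strain, do not say how the knockout allele was made or in which cells it acts, and do not say whether each library came from its own animal. P-values therefore measure the spread between these libraries, part of which may be technical. By the library names in the table, young controls 1 and 2, aged controls 1 to 3 and labelled knockout replicates 1 and 2 were male, and the other libraries were female.

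Tight junctions seal the space between neighbouring epithelial or endothelial cells. Claudins are membrane proteins that span the membrane several times and whose polymers form the sealing strands. JAMs are immunoglobulin-domain proteins that bind each other across cell contacts, and scaffold proteins such as ZO-1, the product of Tjp1, tie both to the actin cytoskeleton. HSCs form no epithelial sheet, but JAMs and the endothelial adhesion molecule ESAM are known on the surface of blood stem and progenitor cells, and JAM-B and JAM-C, the products of Jam2 and Jam3, bind each other. In endothelium, claudin-5 is the main strand protein and is required for the blood-brain barrier.

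Some facts of the series bear on every value below. Thbs1 was not lower in the labelled knockout libraries: its mean FPKM, a read count scaled by gene length and sequencing depth, was 4.24 in young controls, 2.90 in aged controls and 10.4 in the labelled knockout libraries. The deposited table does not give which part of Thbs1 the allele removes, so the label could not be checked further. The table's sample titles were used for the groups, while the submitters' sample descriptions attach the library names to other samples for 10 of the 15 columns. Reads in genes were 16.65e6 to 28.62e6 per library. The share of rRNA-like genes among them was highest in labelled knockout replicate 2 (4.49%) and replicate 5 (2.09%), and it was 0.592% to 1.49% in all other libraries. All 11 genes listed to check for HSCs, Kit, Procr and Hlf among them, had a mean FPKM of at least 1. The list also held Cd48 (mean 1.55 FPKM) and Flt3 (6.01), which are markers of progenitors and not positive markers of HSCs. Some of the 11 genes differed between the groups. With age Ly6a, Procr and Hoxb5 rose and Flt3 fell (9.51 to 2.35 FPKM, -1.65 on the log2 scale, limma adjusted p = 0.00043). Ly6a fell in the labelled knockout libraries against aged controls (284 to 137 FPKM, -1.12, limma adjusted p = 0.00432).

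The members spanned a wide range of levels. In FPKM, which is scaled per length and so can be set side by side between genes, the young controls had the order F11r (52.9 ± 4.41, SD, n = 5), Cldn12 (11.9 ± 1.52), Jam3 (4.81 ± 0.737), Cldn5 (2.96 ± 0.409), Jam2 (2.67 ± 0.779) and Tjp1 (0.362 ± 0.366). Of neighbours in that order, only Cldn5 and Jam2 had overlapping ranges. In the aged controls Cldn5 (64.6 ± 35.7) stood next to F11r (79.4 ± 16.1), and these ranges overlapped. Cldn12 (15.8 ± 2.72) and Jam2 (9.04 ± 3.33) followed with overlapping ranges, and then came Jam3 (4.94 ± 1). In the labelled knockout libraries the order was F11r (56.8 ± 9.44), Cldn5 (18.6 ± 7.8), Cldn12 (10.9 ± 4.69), Jam3 (6.19 ± 2.07) and Jam2 (6.14 ± 3.49), with F11r above the rest and each later neighbour overlapping the next.

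**Figure D1:**
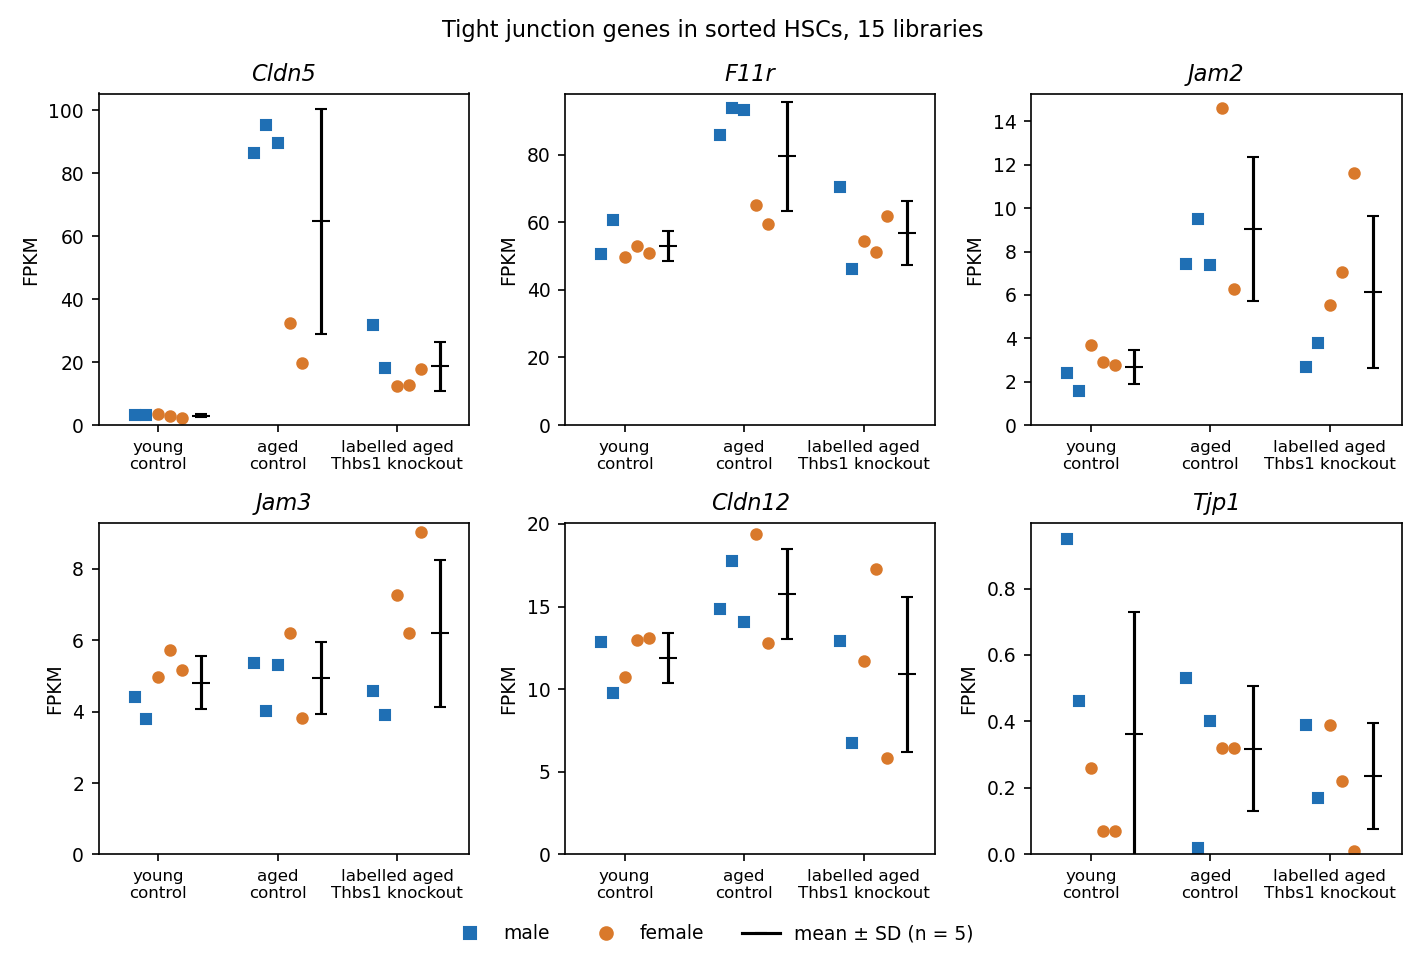
FPKM of each gene in each of the 15 libraries, by group, with male libraries as squares and female libraries as circles, and the group mean ± SD (n = 5) to the right of the points (axes start at 0, which cuts the lower end of the Tjp1 bar in young controls). Cldn5 lies between 2.28 and 3.36 in young controls and between 19.61 and 95.29 in aged controls, with the 3 male libraries at the top.

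Cldn5 rose with age more than any other of the 11345 genes tested (genes averaging 1 FPKM or more across the 15 libraries). In young controls 1 to 5 it stood at 3.09, 3.13, 3.36, 2.93 and 2.28 FPKM. The values in the aged group, replicates 1 to 5, were 86.32, 95.29, 89.61, 32.38 and 19.61. The lowest aged control was above the highest young control by a wide margin, and the aged controls split into 3 male libraries at 86.32 or more and 2 female libraries at 32.38 or less. The aged mean was 21.9 times the young mean. On the log2(FPKM + 1) scale the rise was 3.81 (SE 0.36, 95% interval 3.07 to 4.56, limma adjusted p = 3.23e-06). Between 81 and 123 reads stood behind the young values and between 648 and 3383 behind the aged values, so counting error was of the order of the spread between libraries in the young group and far below it in the aged group. In bulk libraries a larger share of cells expressing a gene and more RNA per cell cannot be told apart.

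Counted over the tested members, 3 of 5 rose with age (Cldn5, Jam2 and F11r) and none fell. Of all genes tested, 4.42% were called in either direction and 3.18% rose. Tjp1 did not reach the mean FPKM needed for this fit.

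In the labelled knockout libraries Cldn5 was 31.73, 18.26, 12.55, 12.84 and 17.69 FPKM in replicates 1 to 5, from 348 to 940 reads. These values lay above every young control and, for 4 of the 5, below every aged control. Replicate 1, a male library at 31.73, lay between the female aged controls 4 and 5. Within each sex, every labelled knockout library was below every aged control. Male values were 31.73 or less against 86.32 or more, and female values were 17.69 or less against 19.61 or more. The mean was 0.288 times that of the aged controls. The difference from aged controls was -1.58 (SE 0.36, 95% interval -2.32 to -0.83, limma adjusted p = 0.0288), and the difference from young controls was 2.24 (95% interval 1.49 to 2.98, limma adjusted p = 0.00315). Cldn5 was the 1 member of 5 called against aged controls, where 1.55% of tested genes were called and 1.19% fell. It was also the 1 member called against young controls, where 1.63% were called and 1.01% rose. These comparisons share the aged or the young control libraries with the comparison of age.

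The call against aged controls was close to the threshold and was lost without any 1 of 6 libraries, while the size of the difference changed little. Its limma adjusted p was 0.101, 0.0954 and 0.0961 without aged control 1, 2 or 3, and 0.0632, 0.0663 and 0.062 without labelled knockout replicate 2, 3 or 4. In those fits the difference was -1.41, -1.38 and -1.4, and -1.59, -1.46 and -1.47. Without aged control 5, the lowest aged library for Cldn5, the difference was -1.93 (limma adjusted p = 0.0012). Without labelled knockout replicates 2 and 5, which had the most rRNA-like reads, it was -1.6 (limma adjusted p = 0.0935). With sex as a covariate and all libraries it was -1.4 (limma adjusted p = 0.00663, where 2.11% of tested genes were called).

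Cldn5 lies on the plus strand at chr16:18776847-18778262 of GRCm38 (ENSMUSG00000041378, 1 exon block of 1416 bases) and shares no exon bases with another annotated gene. Its nearest neighbour among the genes of the expression table is Cdc45, a replication factor gene 2185 bases away on the opposite strand. For Cdc45 the difference of aged from young controls was -0.28 (limma adjusted p = 0.39). The bases just before the starts of Cldn5 and F11r, the called members with a window in RefSeq's promoter table (GRCm38.p6), are printed here because both genes rose with age. Capitals mark matches to the motifs searched on both strands.

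Cldn5 promoter, chr16:18776597-18776846, plus strand: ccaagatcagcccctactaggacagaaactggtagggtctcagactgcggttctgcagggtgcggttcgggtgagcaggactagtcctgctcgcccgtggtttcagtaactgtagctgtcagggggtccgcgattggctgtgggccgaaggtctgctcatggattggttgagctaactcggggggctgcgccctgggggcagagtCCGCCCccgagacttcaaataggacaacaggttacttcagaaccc
F11r promoter, chr1:171437311-171437534, plus strand: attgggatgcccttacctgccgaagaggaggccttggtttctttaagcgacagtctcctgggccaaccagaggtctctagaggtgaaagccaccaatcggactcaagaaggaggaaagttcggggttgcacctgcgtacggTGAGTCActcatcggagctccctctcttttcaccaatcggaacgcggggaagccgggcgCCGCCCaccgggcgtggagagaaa

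The motifs searched were those of ETS factors, spelled CCGGAAG and present in 6.91% of 32851 RefSeq windows of 250 bases, and of RUNX factors, spelled TGTGGT and present in 14.0%. The letters AGATAA, for GATA factors, were present in 9.99% of windows and TTCNNNGAA, for STAT factors, in 7.02%. The AP-1 letters TGANTCA were present in 6.75% and the SP/KLF letters GGGCGG in 32.7%. No match overlapped another in the windows shown. The Cldn5 window held 1 match, to the SP/KLF letters, 45 bases before the RefSeq start. The F11r window held 1 AP-1 match 109 bases before its RefSeq start and 1 SP/KLF match 50 bases before it. The stretch printed for F11r ends at the start of the gene in the annotation, and the RefSeq start lies beyond that end, inside the annotated gene. Cldn12 had 3 overlapping windows, which all held the same ETS match. The second and the third also shared 1 STAT and 1 SP/KLF match, both inside the annotated gene. The Tjp1 window held 2 SP/KLF matches. Windows were found for 4 of the 6 members.

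Cldn12, a claudin known from brain endothelium and several epithelia, did not pass the test in any comparison of groups. Young controls 1 to 5 had 12.83, 9.79, 10.73, 12.96 and 13.10 FPKM. Aged controls 1 to 5 had 14.83, 17.76, 14.04, 19.39 and 12.82. Of the aged libraries, 4 were above every young control and replicate 5 was within the young range. The difference was 0.37 (95% interval -0.09 to 0.84, limma adjusted p = 0.337). In the labelled knockout libraries it was 12.92, 6.75, 11.68, 17.26 and 5.84. The lowest values, in replicates 2 and 5, were in the libraries with the most rRNA-like reads. Against aged controls the difference was -0.58 (95% interval -1.04 to -0.11, limma adjusted p = 0.25) with all 5 libraries and -0.17 (limma adjusted p = 0.714) without those 2. The part of rRNA-like reads in the difference was not tested beyond this. Cldn12 lies at chr5:5489537-5514958 on the minus strand.

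Cldn5 and Cldn12 exchanged their order between the groups. The ratio of Cldn5 to Cldn12 FPKM stayed at 0.174 to 0.32 in young controls. It reached 1.53 to 6.38 in the aged group, and the labelled knockout libraries had 0.744 to 3.03. Cldn5 made up 8.1% to 16.4% of the summed FPKM of the genes named Cldn in young controls. In aged controls it made up 80.3%, 79.8% and 79.5% in the male libraries and 54.9% and 39.6% in the female ones. In the labelled knockout libraries it made up 31.1% to 53.5%. The rest of the claudin sum was mostly Cldn12 and Cldn13, a rodent claudin known from the erythroid lineage, and Cldn13 varied strongly within groups (8.87 ± 7.73, 3.58 ± 5.32 and 8.18 ± 9.8 FPKM in young, aged and labelled knockout libraries, SD, n = 5).

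**Figure D2:**
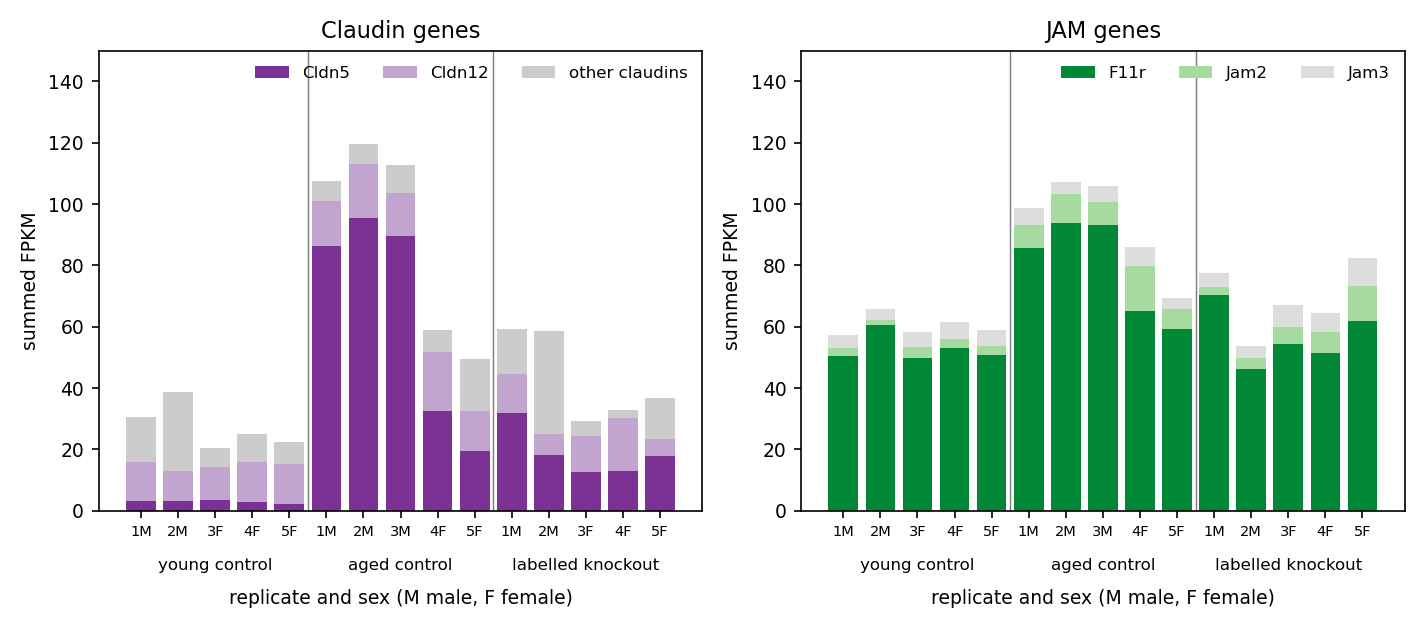
Stacked FPKM of the claudin genes (left: Cldn5, Cldn12 and the other genes named Cldn) and of the JAM genes (right: F11r, Jam2 and Jam3) in each library, labelled by replicate and sex (M male, F female). Cldn5 makes up 79.5% to 80.3% of the claudin sum in the aged male libraries, while F11r is 75% to 91.9% of the JAM sum in every library.

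F11r, which encodes JAM-A, was the most abundant of the 3 JAM genes in all 15 libraries, at 75% to 91.9% of their summed FPKM. Its young values were 50.57, 60.51, 49.69, 52.98 and 50.87 FPKM (replicates 1 to 5). Its aged values were 85.76, 93.74, 93.22, 65.11 and 59.35. The male aged libraries were again the highest, and aged control 5 was below young control 2, so the groups overlapped. The aged mean was 1.5 times the young mean, a rise of 0.56 (SE 0.15, 95% interval 0.24 to 0.87, limma adjusted p = 0.0378). That call was lost when any 1 of young controls 1, 3, 4 and 5 or aged controls 1, 2 and 3 was left out (limma adjusted p 0.0777 to 0.129), and the difference then stayed between 0.49 and 0.56.

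In the labelled knockout libraries F11r was 70.28, 46.14, 54.39, 51.27 and 61.80 FPKM. These values spanned the young range and reached into the aged range. The difference from aged controls was -0.47 (95% interval -0.78 to -0.16, limma adjusted p = 0.143), and from young controls it was 0.09 (limma adjusted p = 0.732). F11r lies at chr1:171437535-171464603 on the plus strand (ENSMUSG00000038235).

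Jam2, which encodes JAM-B, rose with age without overlap between the groups. In order of replicate number, the young libraries had 2.40, 1.56, 3.70, 2.89 and 2.79 FPKM. The aged libraries had 7.43, 9.49, 7.37, 14.63 and 6.29. Every aged library was above every young one, and the highest was the female aged control 4. The aged mean was 3.39 times the young mean, a rise of 1.43 (SE 0.28, 95% interval 0.83 to 2.02, limma adjusted p = 0.0049).

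Jam2 was 2.69, 3.78, 5.54, 7.07 and 11.62 FPKM in the labelled knockout libraries, a spread that reached from the young range into the aged range. The 2 male libraries, at 2.69 and 3.78, were within the range of all young controls or just above it. Both were above the male young controls (1.56 and 2.4). Of the 3 female libraries, 2 lay in the aged range and replicate 3 lay between the control groups. All 3 were above the female young controls (2.79 to 3.7). The difference from aged controls was -0.57 (95% interval -1.16 to 0.02, limma adjusted p = 0.409), and from young controls it was 0.86 (95% interval 0.27 to 1.45, limma adjusted p = 0.12). With sex as a covariate the difference from young controls passed the threshold (0.86, limma adjusted p = 0.0452, where 3.78% of tested genes were called). Jam2 lies at chr16:84774123-84825928 on the plus strand, on the chromosome that also carries Cldn5.

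Jam3, which encodes the partner JAM-C, did not follow Jam2. Young replicates 1 to 5 had 4.41, 3.79, 4.96, 5.72 and 5.16 FPKM, and aged replicates 5.37, 4.01, 5.30, 6.20 and 3.83. The labelled knockout replicates had 4.57, 3.90, 7.28, 6.19 and 9.03. Young and aged controls covered nearly the same range, and the 2 highest values were in female labelled knockout libraries. The difference of aged from young controls was 0.03 (95% interval -0.37 to 0.42, limma adjusted p = 0.95). Against aged controls the labelled knockout libraries differed by 0.24 (95% interval -0.15 to 0.64, limma adjusted p = 0.61). The ratio of Jam2 to Jam3 FPKM was 0.412 to 0.746 in young controls. With 1.38 to 2.37, no aged control overlapped them, and the labelled knockout libraries had 0.589 to 1.29. Jam3 lies at chr9:27097384-27155421 on the minus strand, and the antisense gene Gm48796 shares 1159 exon bases with it. Whether strand was used in counting is not given in the sources used here, and Gm48796 was listed at 0.35 FPKM or less.

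Tjp1 was barely detected. Young replicates 1 to 5 had 0.95, 0.46, 0.26, 0.07 and 0.07 FPKM. Aged replicates had 0.53, 0.02, 0.40, 0.32 and 0.32, and labelled knockout replicates 0.39, 0.17, 0.39, 0.22 and 0.01. These values rest on 2 to 138 reads over 7811 exonic bases (chr7:65296165-65527781, minus strand). The groups overlapped almost completely. Exact two-sided permutation tests of log2(FPKM + 1) gave p = 0.889 for aged against young controls, 0.484 for the labelled knockout libraries against aged controls and 0.611 against young controls, where 5 against 5 libraries can reach 0.0079. The related scaffold gene Tjp3 (5.75 ± 1.32, 7.64 ± 1.51 and 4.22 ± 2.26 FPKM in young, aged and labelled knockout libraries, SD, n = 5) had a higher mean than Tjp1 in each group.

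**Figure D3:**
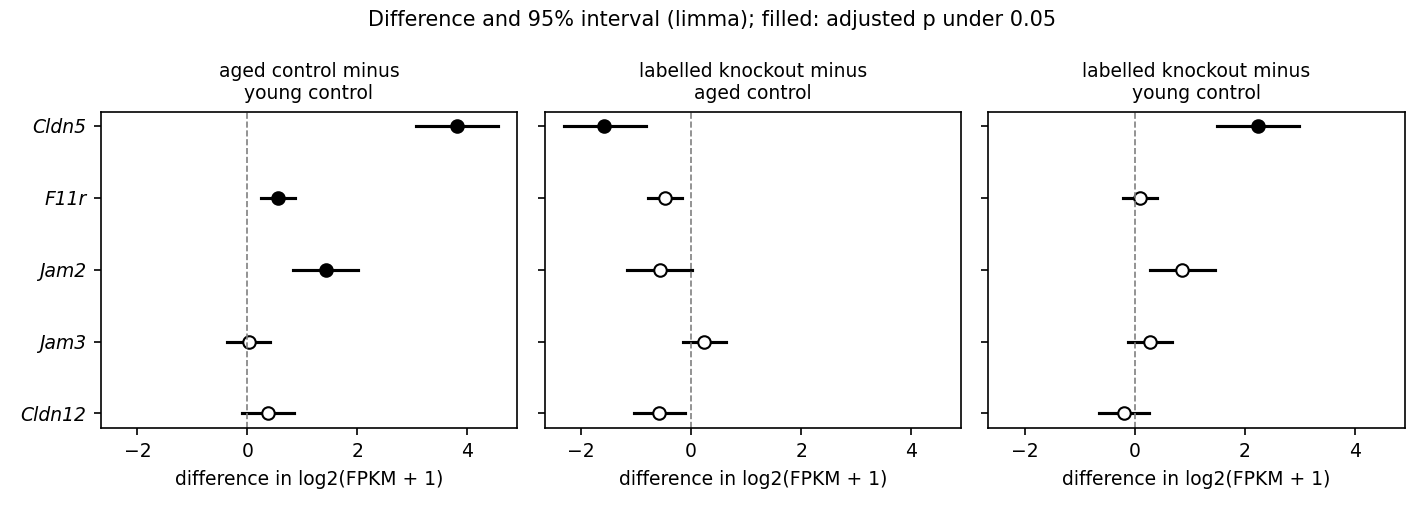
Difference in log2(FPKM + 1) with its 95% interval from limma for the 5 tested members in the 3 comparisons; filled points have an adjusted p under 0.05. Cldn5, F11r and Jam2 are filled for age, at 3.81, 0.56 and 1.43, and Cldn5 alone is filled against each control group for the labelled knockout libraries, at -1.58 and 2.24.

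**Figure D4:**
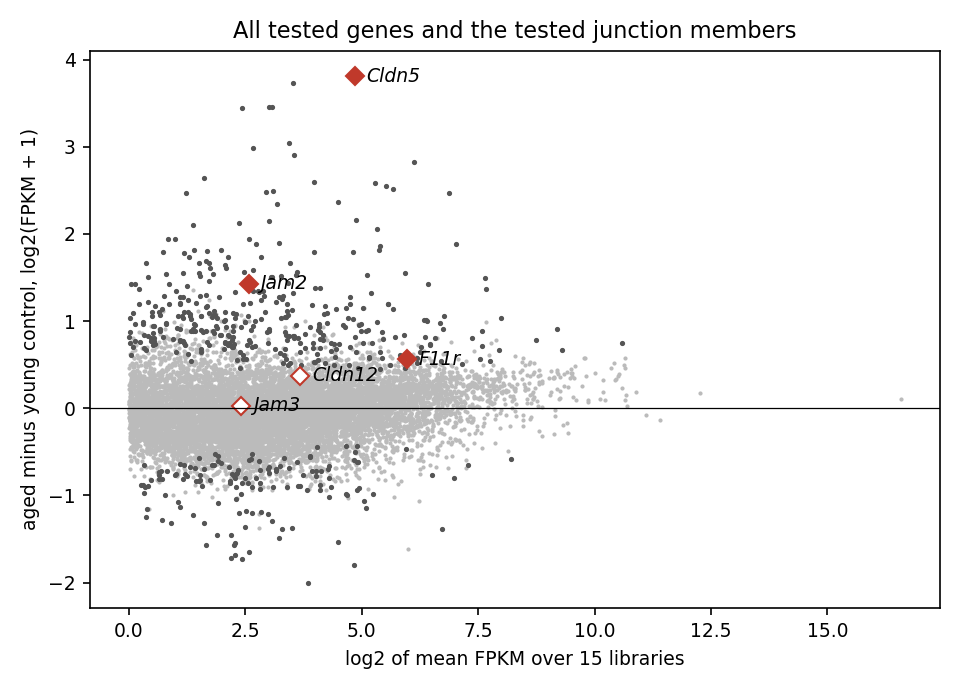
Difference of aged from young controls in log2(FPKM + 1) for the 11345 tested genes (light grey, called genes in dark grey), against the log2 of the mean FPKM over 15 libraries, with the 5 tested members as diamonds (filled red if called). Cldn5 has the highest value of all, 3.81, and Jam3 lies at 0.03.

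Within groups, 2 members differed between the sexes. With group and sex in 1 model, Cldn5 was higher in male libraries by 0.88 (SE 0.22, limma adjusted p = 0.0184) and Jam2 was lower in them, with a male minus female difference of -0.59 (SE 0.19, limma adjusted p = 0.0494). These were 2 of the 5 tested members, in opposite directions, where 12.9% of all tested genes were called for sex. Jam3 had the same sign as Jam2 (-0.33, limma adjusted p = 0.109) and F11r the same sign as Cldn5 (0.23, limma adjusted p = 0.17). Male libraries come first in the numbering of each group, so sex and any batch that ran with the replicate numbers cannot be told apart. The Jam2 call was lost in 12 of the 15 fits that left out 1 library, and the Cldn5 call without aged control 4 (limma adjusted p = 0.0543) or 5 (limma adjusted p = 0.0508).

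Among aged controls Cldn5 was 90.4 ± 4.54 FPKM in males (SD, n = 3) and 26 ± 9.03 in females (n = 2), while in young controls it was 3.11 and 2.86. Fitted within males alone, the rise with age was 4.47 (limma adjusted p = 1.66e-07, where 9.34% of genes were called). Within females it was 2.78 (limma adjusted p = 0.00445, where 0.195% were called). The difference between these changes, tested as an interaction after the values had been seen, was 1.7 (SE 0.35, unadjusted p = 0.00022, limma adjusted p = 0.356). No gene passed that interaction in limma, where 998 of 11345 had an unadjusted p under 0.05. The libraries labelled knockout differed from aged controls for Cldn5 by -1.86 in males (limma adjusted p = 0.000392, 2.06% of genes called) and by -0.79 in females (limma adjusted p = 0.721, 0.0888% called), with an interaction of -1.07 (unadjusted p = 0.00771, limma adjusted p = 0.999). For Jam2 these differences were -1.11 in males (limma adjusted p = 0.0279) and -0.29 in females (limma adjusted p = 0.934).

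With only group means taken off, Cldn5 varied with F11r within groups, and Jam2 with Jam3. Over 15 libraries, Pearson's r of log2(FPKM + 1) was 0.85 for Cldn5 with F11r and 0.8 for Jam2 with Jam3. It was -0.23 for Cldn5 with Jam2 and -0.13 for Cldn5 with Jam3. With group and sex means taken off, these became 0.76, 0.53, 0.55 and 0.63. Jam2 with Jam3 then no longer stood above Cldn5 with Jam2 or Cldn5 with Jam3. These values are descriptions: genes of a library share its depth, RNA quality and sex. The tested genes most like Cldn5 within groups were Fetub, Gstm2 and Agpat2 (r = 0.95 each), and those most like F11r were Maf1 (0.96), Ric8a (0.93) and Pld3 (0.92). Those most like Jam2 were Rnf11 (0.94), Sult1a1 (0.9) and Setd7 (0.89), those most like Jam3 were Trib2 (0.89), Traf3ip2 (0.88) and Pter (0.87), and those most like Cldn12 were Extl3 (0.94), Man2a2 (0.93) and Foxred2 (0.93).

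Other genes of cell junctions were taken from 6 lists, of claudins, the JAM family, occludin and its relatives, tight junction scaffolds, adherens junctions and the integrins that JAMs bind. Of their 85 genes in the table other than the members, 46 were tested. With age 5 of the 46 rose and none fell, beside 3.18% of all tested genes that rose, and the median difference was 0.1 against -0.02 over all tested genes. In the labelled knockout libraries against aged controls none rose and 3 fell, beside 1.19% of all tested genes that fell, with a median of -0.22 against -0.03 over all genes. Against young controls 1 rose (Amotl2) and none fell, beside 1.01% of all tested genes that rose.

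Itgb3, the beta subunit of the integrin that JAM-A associates with, was 18.9 ± 1.66 FPKM in young controls, 71.1 ± 4.7 in aged controls and 36.8 ± 17.2 in the labelled knockout libraries (SD, n = 5). It rose with age by 1.86 (SE 0.21, limma adjusted p = 2.59e-05), and the labelled knockout libraries were lower than aged controls, at -1.04 (limma adjusted p = 0.0139, or 0.0514 without aged control 1). Itgav, which encodes an alpha subunit on the same list, had only 1.67, 1.05 and 1.12 FPKM in the same order of groups. It was called in no comparison. Lsr, which encodes angulin-1 of tricellular contacts, was 3.93 ± 0.496, 11.8 ± 2.82 and 4.61 ± 1.57 FPKM in the same order. It rose with age by 1.35 (limma adjusted p = 0.000277) and was lower in the labelled knockout libraries than in aged controls, at -1.21 (limma adjusted p = 0.00198). Against young controls the Lsr difference was 0.15 (limma adjusted p = 0.659).

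Amotl2, an angiomotin family scaffold, was 2.58 ± 0.642, 9.76 ± 1.68 and 6.65 ± 2.06 FPKM in young, aged and labelled knockout libraries. It rose with age by 1.59 (limma adjusted p = 3.58e-05) and was above young controls in the labelled knockout libraries, by 1.07 (limma adjusted p = 0.00486). Crb3, a polarity gene, rose with age by 1.3 (limma adjusted p = 0.00946). Esam, a JAM relative and HSC surface marker, was 87 ± 6.39, 128 ± 21.4 and 98.4 ± 12.6 FPKM and rose with age by 0.54 (limma adjusted p = 0.0193, or 0.0612 to 0.0793 when young control 3 or 5 or aged control 1 or 2 was left out). Micall2, which links junction traffic to actin, fell in the labelled knockout libraries against aged controls by 0.75 on the log2 scale (limma adjusted p = 0.0351), a call lost in 6 of the 15 fits without 1 library, at up to 0.114.

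The most abundant list genes that were called in no comparison are given by level, in young, aged and labelled knockout libraries. Ybx3 had 109, 109 and 123 FPKM, Ctnnb1, which encodes beta-catenin, 62.7, 51.4 and 47.3, and Actn4 53.3, 58.4 and 42.4. Itgb1 had 55.4, 35.9 and 36.4 FPKM, Marveld1 39.9, 50.6 and 39.6, Arhgef2 37.9, 41.5 and 35.3, and Cldnd1 36, 39.7 and 37.4. Itgb2 had 13.8, 14.1 and 8.64, Marveld2 5.74, 6.84 and 4.8, and Vsig2 2.2, 2.3 and 2.22, while Cxadr was at 0.188, 0.26 and 0.26 and was not tested. None of the 11 tested adherens junction genes was called in any of the 3 comparisons, a number near the background of 4.42%, 1.55% and 1.63% of all tested genes.

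**Figure D5:**
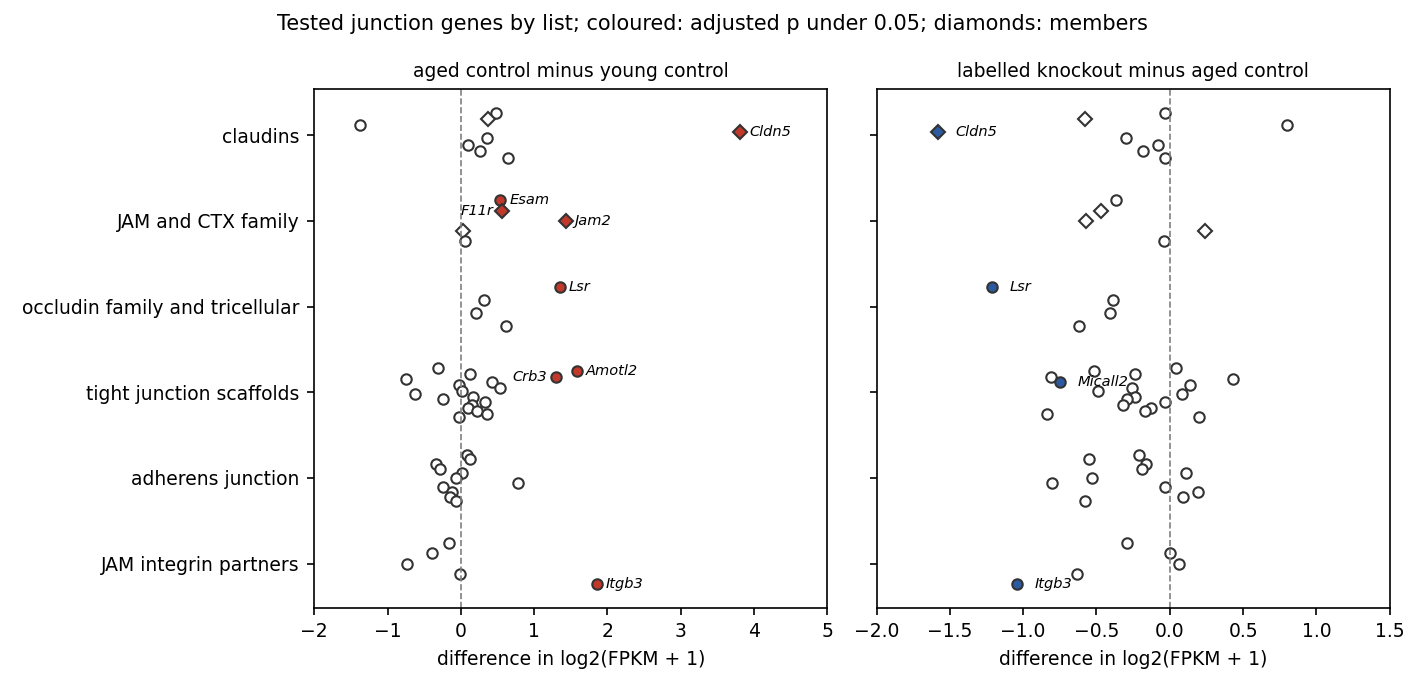
Difference in log2(FPKM + 1) of each tested junction gene (points, members as diamonds) by list, for aged minus young controls (left) and the labelled knockout libraries minus aged controls (right); red and blue mark higher and lower genes with a limma adjusted p under 0.05. The 8 called genes on the left all lie above 0 and the 4 on the right all lie below 0, with Cldn5 at the end of each panel.

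Since Cldn5 is an endothelial gene in most tissues, endothelial markers were set beside it. Of 19 listed, 18 were in the table and 11 had a mean FPKM of at least 1, several of which, such as Esam and Tek, HSCs also express. Their summed FPKM was 294 to 327 in the young group, 316 to 418 in the aged group and 259 to 432 in the labelled knockout libraries. The defining markers Cdh5 and Flt1 were at 0.19 FPKM or less in every library, Mmrn2 and Cav1 at 0.28 or less, Stab2 at 0.45 or less and Flt4 at 0.94 or less, while Cldn5 reached 95.29. Low markers whose means had the order of Cldn5, with no call, were Plvap (1.23 ± 0.949, 2.78 ± 1.11 and 1.38 ± 0.523 FPKM in young, aged and labelled knockout libraries, SD, n = 5), Kdr (0.952 ± 0.208, 1.99 ± 0.579 and 1.34 ± 0.516) and Flt4 (0.098 ± 0.0694, 0.368 ± 0.348 and 0.21 ± 0.119, not tested). Other markers had lower means in aged than in young controls, also with no call. They were Emcn (4.39, 2.28 and 3.8 FPKM in the same order of groups), Tek (12.7, 10 and 9.52) and Pecam1 (11, 10.8 and 7.99). The abundant markers were Eng (81, 99 and 87.2 FPKM), Tie1 (68.4, 76.5 and 64.1), Robo4 (17, 13.7 and 14.3) and Egfl7 (13.6, 15.2 and 22.4), none of them called with age or against aged controls. With age 2 of the 11 tested markers rose (Esam and Sox18) and none fell, beside 3.18% of all tested genes that rose. Sox18 had 10.4, 18.9 and 24.6 FPKM in young, aged and labelled knockout libraries. Its labelled knockout values were not called against aged controls (0.36, limma adjusted p = 0.45) and were above young controls (1.14, limma adjusted p = 0.00456). The part of endothelial RNA in the values of the members was not tested.

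Markers of megakaryocytes and platelets, of which Vwf, Selp and Itga2b are also known from platelet-biased HSCs, differed between the groups as well. Their summed FPKM was 446 to 560 in the young group, 445 to 2180 in the aged group and 262 to 420 in the labelled knockout libraries. The highest sum was that of aged control 5, where Pf4 alone had 1579.13 FPKM, and Pf4 was not called (limma adjusted p = 0.472 with age). Without Pf4 the sums were 238 to 279, 319 to 599 and 210 to 247, and the aged controls did not overlap the others. With age 4 of 11 tested markers rose (Itga2b, Gp1bb, Vwf and Selp) and Ppbp fell, and the same 4 fell in the labelled knockout libraries against aged controls, beside 3.18% and 1.19% of all tested genes. Ppbp was 18, 6.15 and 3.97 FPKM in young, aged and labelled knockout libraries. Tubb1 was 3.2, 1.13 and 1.45 and was not called (limma adjusted p = 0.0619 with age). Aged control 5, with the highest Pf4, had the lowest Cldn5 and F11r of the aged group. Aged control 4, with the lowest marker sum of that group (445, or 319 without Pf4), had the next lowest Cldn5 (32.38 FPKM) and F11r (65.11). Both libraries were female, and their marker sums were the highest and the lowest of the aged group, with or without Pf4. Aged controls 1 to 3, all male, lay between them. The part of marker level in these values was not tested. In the list for T and NK cells, Klrb1c (2.66 ± 0.746, 17.8 ± 4.96 and 6.88 ± 4.82 FPKM) rose with age (2.34, limma adjusted p = 8.69e-05) and was lower in the labelled knockout libraries than in aged controls (-1.38, limma adjusted p = 0.0207). The other genes of that list did not share this. Nkg7 (70.3, 86.3 and 43.8 FPKM) was not called. Too low to be tested were Cd4 (0.764, 0.13 and 0.2), Cd3d (0.082, 0.058 and 0.148) and Ncr1 (0, 0.014 and 0.252). The part of RNA from any of these cell types in the values of the members was not tested.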

How the data were processed

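Bulk RNA-seq libraries of sorted mouse bone-marrow HSCs were prepared with the SMART-Seq v4 kit, per the labels' protocols. The authors deposited FPKM values, rounded to 2 decimals, in 1 table. The submitters' processing notes name FastQC 0.11.5, STAR, edgeR and GRCm38 (mm10). Columns were assigned to groups by their titles and to sexes by their library names. All 20696 identifiers were found in GENCODE M21, which gave symbols, positions and lengths.

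Depth was recovered from the FPKM steps: in genes of at most 250 nucleotides at least 98.5% of values were whole reads within 0.1, and 97.5% to 98.3% were whole in other genes up to 500 nucleotides. Read numbers carry counting error only.

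Values were analysed as log2(FPKM + 1), which understates the change of low genes. The 11345 genes averaging 1 FPKM or more were fitted with limma 3.58.1 (R 4.3.3, trended prior, all 15 libraries, no covariate). Tests were two-sided, Benjamini-Hochberg adjusted over all tested genes and called at 0.05. The script was tested on simulated data. Tjp1 got an exact permutation test.

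The members and the gene lists were chosen with earlier results of these data known. Genes named were the members, the list genes called in any comparison plus the 2 most abundant others of each list, the 3 genes most correlated with each member within groups, and Thbs1. Tjp3, Itgav, Cdc45 and the marker genes were added after their values were seen. Alternatives covered the pseudocount, filter, scaling, sex, replicate number, groups in the fit, libraries left out, voom on recovered reads and groups from the descriptions.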

Additional observations from a re-analysis of the deposited data

How the results depend on the processing

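Cldn5 and Jam2 against age and Cldn5 against young controls kept their direction under all alternatives except the grouping from the sample descriptions. Differences are in log2(FPKM + 1), with limma adjusted p. The Cldn5 rise with age was 2.78 to 4.47 under the others, its adjusted p at most 0.00445.

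With groups taken from the descriptions, the young group was all male (young controls 1 and 2 and aged controls 1 to 3 by title). The aged group was young controls 3 to 5 and labelled knockout replicates 1 and 2. The labelled knockout group was all female (aged controls 4 and 5 and labelled knockout replicates 3 to 5). A letter in the library names, A, B or C, ran with the groups by title. Under the descriptions, aged against young controls was -1.7 for Cldn5, -0.28 for Cldn12, -0.48 for Jam2 and -0.47 for F11r. The labelled knockout against aged controls was then 1.22 for Cldn5, 0.17 for Cldn12, 1.19 for Jam2, 0.12 for F11r and 0.07 for Tjp1, and against young controls -0.48 for Cldn5 and -0.35 for F11r. Esam (-0.34), Lsr (-0.89), Crb3 (-0.79), Amotl2 (-0.56) and Itgb3 (-0.85) were also reversed for age, and Lsr (0.45) and Itgb3 (1.06) against aged controls. Genes called were 0, 0 and 15 for the 3 comparisons in limma, with 642, 731 and 1645 at an unadjusted p under 0.05. The grouping itself was not tested.

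Replicate numbers did not pair the samples: r between deviations of same-numbered libraries was -0.46 to 0.53, over 0.1 in 6 of 15 pairs, and 3 libraries matched best with their own number. The replicate block left Cldn5 against aged controls at -1.58 (adjusted p = 0.0126) and F11r with age at 0.56 (adjusted p = 0.0568), and Micall2 was not called (-0.75, adjusted p = 0.0687). Genes called were 499, 152 and 158 with the block, against 501, 176 and 185.

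Cldn5 against aged controls was not called without the filter (-1.58, adjusted p = 0.0683), with voom (-1.62, 0.0556), with only the 2 groups compared (-1.58, 0.132), in females (-0.79) or without labelled knockout replicates 2 and 5 (-1.6). Jam2 against aged controls was called in males (-1.11), and against young controls with sex as covariate (0.86). F11r with age was not called without the filter (0.56, adjusted p = 0.0589) or in females (0.28), nor Jam2 in females (1.38). For sex, Jam2 was not called without the filter (-0.59, adjusted p = 0.0973), with quantile normalization (-0.54), voom (-0.69) or without labelled knockout replicates 2 and 5 (-0.49), where F11r was called (0.34). Signs that turned, none of them called, were Jam3 in females with age (-0.09) and in males against aged controls (-0.17), Cldn12 against young controls without replicates 2 and 5 (0.21), and Tjp1 with a pseudocount of 0.1 (0.02), in females (0.22 with age, 0.08 against young controls) and without replicates 2 and 5 (0.03 and 0). Of the other junction genes, Micall2 against aged controls was not called without the filter (adjusted p = 0.0586), with quantile normalization (0.0518), within either sex (0.0792 and 0.934) or with only the 2 groups (0.151), nor Itgb3 with only the 2 groups (0.0872). In females alone none of the calls of these junction genes was kept (adjusted p 0.0835 to 0.654 with age).

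Leaving out 1 library, the ranges for age were 3.62 to 4.17 (Cldn5), 0.49 to 0.65 (F11r), -0.05 to 0.1 (Jam3) and -0.1 to 0.12 (Tjp1). They were -1.93 to -1.38 for Cldn5 against aged controls, -0.19 to 0.03 for Tjp1 against young controls, and for sex 0.66 to 0.99 (Cldn5), -0.77 to -0.48 (Jam2) and -0.21 to 0.01 (Cldn12). Genes called ranged over 302 to 931, 91 to 225 and 98 to 668.

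Genes called for age were 1066 in males, 22 in females, 1035 without labelled knockout replicates 2 and 5 and 1020 with only the 2 groups. Against aged controls they were 10 in females and 77 with only the 2 groups. Against young controls they were 853 in males, 11 in females, 429 with sex as covariate and 119 without replicates 2 and 5. The causes were not tested. FPKM values with 2 decimals limit Tjp1, whose lowest value rests on 2 reads.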
